A study of Mus musculus with 14 samples.

Results

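The insulin-like growth factor 1 (IGF1) axis was followed through 8 genes in 3T3-L1 cells: the ligand gene Igf1, the receptor gene Igf1r and the binding protein genes Igfbp2, Igfbp3, Igfbp4, Igfbp5, Igfbp6 and Igfbp7. A probe set, the group of short probes that reads 1 transcript, was taken for a gene when the platform annotation gave it that gene's symbol and no other. This left 24 probe sets for the 8 genes, out of 34944 probe sets for 18193 genes on the array. The probe set with the highest mean over all 14 arrays stood for its gene, and the others served as a check. Of the 8 genes, 6 reached an intensity of 50 on at least 3 arrays and were tested beside the other genes that did so, 8682 in all. Igfbp2 and Igfbp5 stayed under 50 on every array and are given by their values.

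3T3-L1 is a mouse fibroblast line that turns into adipocytes when confluent cultures receive a hormone mixture. Cells carried either an empty retrovirus or a retrovirus for SETD5, a protein with a SET domain whose influence on adipogenesis the study examined, with 1 array per arm at each of 7 hours (0, 12, 24, 36, 48, 96 and 192 h). The viral transgene was a tagged SETD5 under the retroviral LTR, a promoter that the study's methods call weak. From 0 h, set 2 days after confluence, both arms received insulin at 1 µg/ml, 0.25 µM dexamethasone and 0.5 mM isobutylmethylxanthine for 48 h in medium with 10% serum, and afterwards insulin by itself. No hour had a second array in the same arm, so the error of every virus difference came from the spread of that difference over hours, and the error of every hour change was pooled over the 7 hours, from how far the arms departed from a common course. The labels name no separate transductions within an arm, and p-values therefore measure the spread between these arrays alone.

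IGF1 is a secreted growth factor of liver, muscle and adipose tissue, and in 3T3-L1 cells insulin at high dose can act through its receptor as well as through the insulin receptor. Binding proteins hold IGF1 outside the cell: they carry it, shield it from the receptor or, when a protease cuts them, let it go. Growth hormone raises Igf1 through STAT5, and the activated receptor signals through insulin receptor substrates to the PI3 kinase and MAP kinase branches.

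The arrays were of similar range, with 88.4 to 93.8% of the tested genes at 50 or more on each array and a median intensity of 188 to 208 for the tested genes. The cells' identity was checked against markers. Fibroblast markers summed to between 24493 and 34726 on every array. Adipocyte markers summed to 1611 in the empty virus arm and 1792 in the SETD5 arm at 0 h, to 23404 and 9921 at 96 h, and to 34181 and 19526 at 192 h. All 6 leukocyte, 4 endothelial and 4 epithelial markers stayed under 50 on every array, as did 3 of 4 muscle markers (Des was the exception, and the list summed to at most 87.7). The probe set for Setd5 itself read 249 to 378 in the empty virus arm and 239 to 350 in the SETD5 arm, and it did not check the labels, because where its probes lie relative to the viral insert was not stated. In these bulk cultures, fewer cells of a type and less RNA per cell cannot be told apart.

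The stretches upstream of Igf1, Igfbp3 and Igfbp4 are shown because these were the 3 members called at 12 h. Insulin, isobutylmethylxanthine, which raises cAMP, and dexamethasone, a glucocorticoid, were all in the medium up to 48 h. No array separates them, and their part in the 12 h calls was not tested. Each run is the 250 bases before 1 RefSeq transcription start on GRCm38.p6, read 5′ to 3′ along the gene's strand. Capitals mark a TATA box match (TATAAA).
Igf1, chr10:87860861-87861110, plus strand: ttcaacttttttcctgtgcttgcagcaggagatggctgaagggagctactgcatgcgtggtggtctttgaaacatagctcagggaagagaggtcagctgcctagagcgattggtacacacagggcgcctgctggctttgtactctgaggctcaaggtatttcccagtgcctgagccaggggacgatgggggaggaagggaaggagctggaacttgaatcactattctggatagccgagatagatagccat
Igfbp3, chr11:7213924-7214173, minus strand: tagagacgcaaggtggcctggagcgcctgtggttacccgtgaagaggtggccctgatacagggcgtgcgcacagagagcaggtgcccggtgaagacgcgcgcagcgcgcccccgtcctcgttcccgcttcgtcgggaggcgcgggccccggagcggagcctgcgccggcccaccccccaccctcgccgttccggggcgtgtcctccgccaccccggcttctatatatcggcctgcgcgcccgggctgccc
Igfbp4, chr11:99040994-99041243, plus strand: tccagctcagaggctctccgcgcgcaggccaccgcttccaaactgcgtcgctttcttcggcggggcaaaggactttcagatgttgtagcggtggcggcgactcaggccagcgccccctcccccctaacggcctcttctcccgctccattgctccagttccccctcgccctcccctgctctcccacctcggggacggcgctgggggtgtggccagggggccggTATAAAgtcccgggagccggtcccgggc
The windows of all 8 members were searched on both strands for 4 sets of letters, 9 windows in all because Igfbp2 had 2 starts. The cAMP response element half-site TGACG was in 17.8% of 32851 such windows of the genome and in 0 of the 9, and the C/EBP site TTGCNNAA was in 9.56% of all windows and in 0 of the 9. The glucocorticoid receptor half-site AGAACA was in 16.1% of all windows and in 1 of the 9, that of Igfbp2. The TATA box letters, in 12.4% of all windows, were in 2 of the 9: Igfbp4 held them 28 to 23 bases before its start, and Igfbp6 held them on the opposite strand. These letter matches are descriptions of the windows shown, and other starts of the same genes were not searched.

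During differentiation the ligand gene moved first down and then up. Igf1 read 410 at 0 h in the empty virus arm, and 87.5, 260.5, 782, 849, 339 and 859 at the 6 hours after it. In the SETD5 arm it read 610, 84.8, 298, 791, 936, 764 and 1471 at the same 7 hours. The 12 h arrays were the lowest of each arm, and at that hour the arms were nearly level. Over both arms Igf1 fell by 2.34 ± 0.26 (SE) on the log2 scale from 0 to 12 h, 5.06-fold lower (limma adjusted p = 8.6e-05), and was still lower at 24 h (log2 difference -0.81 ± 0.26, adjusted p = 0.0302). Folds here are on the scale of intensity plus 16, which understates the change of dim genes.

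Recovery of Igf1 came in 2 steps. It rose by 1.53 ± 0.26 from 12 to 24 h (limma adjusted p = 0.00293) and by 1.45 ± 0.26 from 24 to 36 h (adjusted p = 0.00408). Against 0 h it was higher at 48 h (0.81 ± 0.26, adjusted p = 0.0339) and at 192 h (1.14 ± 0.26, 2.21-fold, adjusted p = 0.0141). The value at 36 h did not pass on this probe set (0.63, adjusted p = 0.0907) but did on the other 3 (0.76 to 0.93, adjusted p = 0.0078 to 0.0416), and at 96 h the difference from 0 h was 0.03 (95% interval -0.54 to 0.60). From 96 to 192 h it rose again by 1.12 ± 0.26 (adjusted p = 0.0280), and the preceding drop from 48 to 96 h was not called on this probe set (-0.79, adjusted p = 0.0840) and was on 2 others (adjusted p = 0.0432 and 0.0492). All 4 Igf1 probe sets gave a fall at 12 h, from -1.77 to -2.56, and a rise at 192 h, from 1.01 to 1.21, and each of these 8 values passed the test. The lower value at 24 h passed on 3 of the 4.

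**Figure D1:**
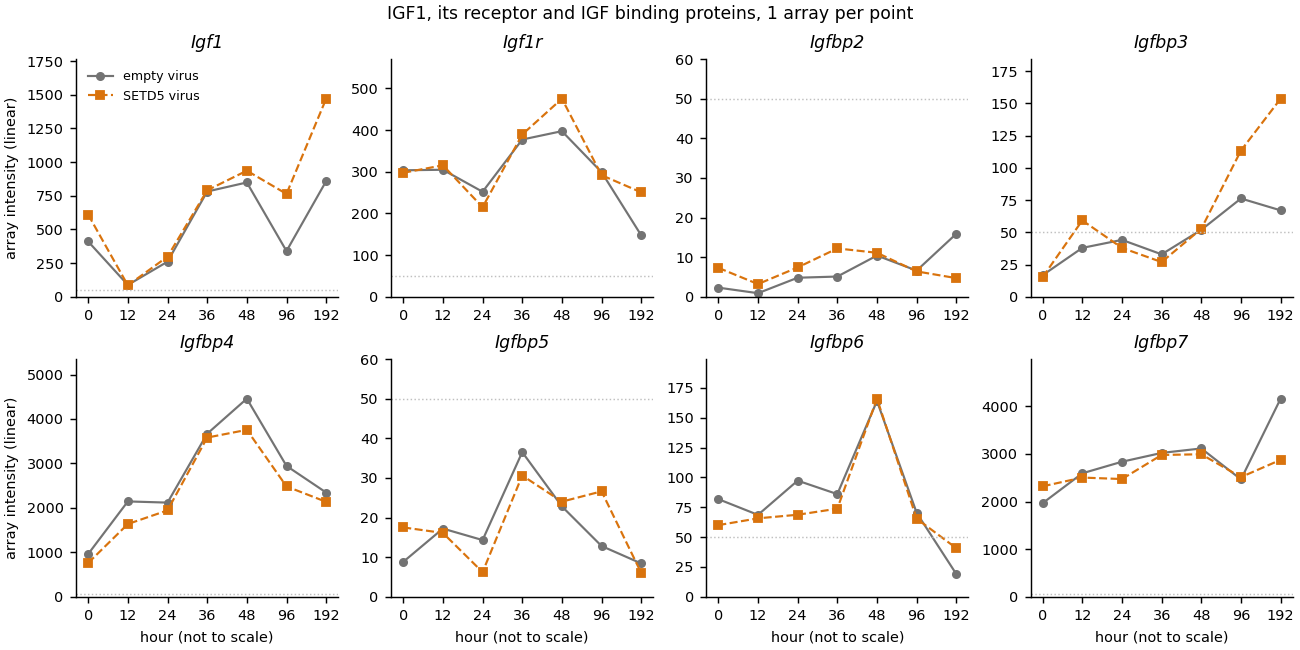
Intensity (linear scale, from 0) of the main probe set of each of the 8 genes at each hour, 1 array per point, with the empty virus as grey circles and the SETD5 virus as orange squares. The dotted line marks an intensity of 50. Igf1 is lowest at 12 h in both arms, Igfbp4 is highest at 48 h in both arms, and Igfbp2 and Igfbp5 lie under the line throughout.

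The receptor gene varied less. Igf1r, the tyrosine kinase that binds IGF1, read 147 at its lowest, 303 at the median and 397 at its highest in the empty virus arm, and 215, 297 and 475 in the SETD5 arm. Both arms had their highest value at 48 h. The lowest value came at 192 h in the empty virus arm and at 24 h in the SETD5 arm, and the arms overlapped. Igf1r rose by 0.68 ± 0.19 from 24 to 36 h (limma adjusted p = 0.0360), a call that held under 10 of 14 other settings and not on its other 2 tested probe sets (adjusted p = 0.0657 and 0.109). It was lower at 192 h than at 0 h (-0.60 ± 0.19, 1.52-fold, adjusted p = 0.0477), which held under 3 of 14. Of its other 2 tested probe sets, 1426565_at was called lower (-0.68, limma adjusted p = 0.0277) and 1428967_at was not called (-0.64, adjusted p = 0.0711). Most of that last fall was in the empty virus arm, where the level went from 303 to 147, against 297 to 250.5 in the SETD5 arm. The difference between the arms in this fall was not tested.

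Among the binding proteins, Igfbp4 had the most lasting rise. This binding protein is known as an inhibitor of IGF1 action and is the main substrate of the protease pappalysin (Pappa). Igfbp4 read 961, 2144, 2118, 3667, 4457, 2943 and 2344 from 0 to 192 h in the empty virus arm. In the SETD5 arm it read 760, 1636, 1942, 3581, 3755, 2482 and 2135. Every later array stood above both 0 h arrays. It was higher than at 0 h at all 6 later hours, from 1.12 ± 0.12 at 12 h (limma adjusted p = 6.5e-05) to 2.24 ± 0.12 at 48 h (4.72-fold, adjusted p = 2.8e-06), and was still 1.37 ± 0.12 higher at 192 h (adjusted p = 7.8e-05). These 6 calls held under all 14 other settings and on 5 of the 6 probe sets. The dimmest one, 1421991_a_at, was called at 36 and 48 h. Within that course Igfbp4 rose by 0.83 from 24 to 36 h (adjusted p = 0.000876) and fell by 0.60 from 48 to 96 h (adjusted p = 0.0167).

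Igfbp3, which encodes the major IGF carrier of serum, started near the floor of the array and climbed late. Its values ran 16.7, 37.9, 44.1, 32.9, 51.9, 76.2 and 67.0 from 0 to 192 h in the empty virus arm. The SETD5 arm gave 15.2, 59.2, 37.9, 26.9, 52.7, 113 and 154. The 0 h array was the lowest of each arm, and 7 of the 14 arrays reached 50. Igfbp3 was called higher than at 0 h at 12 h (limma adjusted p = 0.0112), 24 h (adjusted p = 0.0305), 48 h (adjusted p = 0.0106), 96 h (adjusted p = 0.00198) and 192 h (adjusted p = 0.00129), and not at 36 h (adjusted p = 0.169). Both 0 h arrays lay under the filter of 50, so the size is given as a bound, with those arrays set to 50: at least 1.66-fold at 96 h and at least 1.80-fold at 192 h. No such bound above 1 can be given for 12 and 24 h. The gene passed the filter through later hours. Its other probe set reached 50 on 2 arrays, both late SETD5 arrays, and correlated with the main one at r = 0.917 over the 14 arrays.

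Igfbp6, a binding protein that prefers IGF2 to IGF1, peaked at a single hour. At 48 h it read 164 in the empty virus arm and 166 in the SETD5 arm, while its other values ran from 19.0 to 97.3 and from 40.7 to 73.8. It was 1.07 ± 0.22 higher at 48 h than at 0 h (2.10-fold, limma adjusted p = 0.00511) and fell by 1.11 from 48 to 96 h (adjusted p = 0.0176). The step up from 36 to 48 h, of 0.92 ± 0.22, was not called (adjusted p = 0.190). At 192 h both arrays lay under 50, and the level was lower than at 0 h (at least 1.31-fold with those arrays set to 50, adjusted p = 0.0164). The step from 96 to 192 h was called lower too (at least 1.27-fold, adjusted p = 0.0351), under 8 of 13 other settings. Only 1 probe set read this gene.

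Igfbp7, a secreted protein of the matrix with weak affinity for IGFs, lay far above the filter throughout. It ran from 1966 at its lowest through a median of 2837 to 4162 in the empty virus arm, and from 2320 through 2514 to 2994 in the SETD5 arm. The arms overlapped, and the highest value of all was the 192 h empty virus array. Against 0 h it was higher at 36 h (0.49, limma adjusted p = 0.0425), 48 h (0.51, adjusted p = 0.0315) and 192 h (0.69 ± 0.16, 1.62-fold, adjusted p = 0.0156). The call at 36 h held under 7 of 14 other settings and that at 192 h under all 14. Quantile normalization lowered the 36 h and 48 h values to 0.27 and 0.29, with adjusted p = 0.221 and 0.182. A dimmer tested probe set, 1423585_at, correlated with the main one at r = 0.706 and was called higher at every later hour. These calls included 12 h (0.79, limma adjusted p = 0.00462), 24 h (0.69, adjusted p = 0.0115) and 96 h (0.74, adjusted p = 0.0210). The main probe set was not called at those hours. The 0 h arrays of 1423585_at lay under 50, at 42.5 and 41.6.

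Igfbp2, the binding protein that white preadipocytes are known to secrete, ran from 0.9 to 15.9 in the empty virus arm and from 3.2 to 12.2 in the SETD5 arm. Igfbp5, which binds IGF1 and matrix, ran from 8.4 to 36.5 and from 6.0 to 30.6 on its brighter probe set. Their ranges overlapped between the arms and lay under the 50 that the test required. The brighter Igfbp5 probe set was highest at 36 h in both arms. The dimmer Igfbp5 probe set did not share that peak: it read 0.5 at 36 h and 8.0 at 48 h in the empty virus arm, and correlated with the brighter one at r = 0.262 over the 14 arrays. No test is given for either gene.

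Set against the whole array, the members' calls were as follows. At 12 h, 3 of the 6 tested members were called against 0 h (2 higher and 1 lower), where 47.8% of all tested genes were (19.9% higher and 27.9% lower). At 24 h there were again 3 members, with 38.4% of all genes. At 36 h 2 members were called beside 29.4%, and at 48 h 5 members beside 34.2%. At 96 h 2 members were called, with 15.6% of all genes, and at 192 h all 6 were (4 higher and 2 lower), with 19.6% of all genes (7.3% higher and 12.3% lower). The 12 h count lies near the share of all genes, and the counts at 48 and 192 h lie above it. The counts at 12, 24, 48, 96 and 192 h all include Igfbp3, which passed the filter through later hours. Both 0 h arrays of Igfbp3 lay under 50. The 192 h count also includes Igf1r, whose call held under 3 of 14 other settings. In the 24 to 36 h step 3 members were called beside 14.6% of all genes. The 12 to 24 h step had 1 member (20% of all genes), the 36 to 48 h step had 0 by limma (0.127% of all genes, and 1 member at an unadjusted p under 0.05), and the steps into 96 and 192 h had 2 each (8.28% and 7.39% of all genes).

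**Figure D2:**
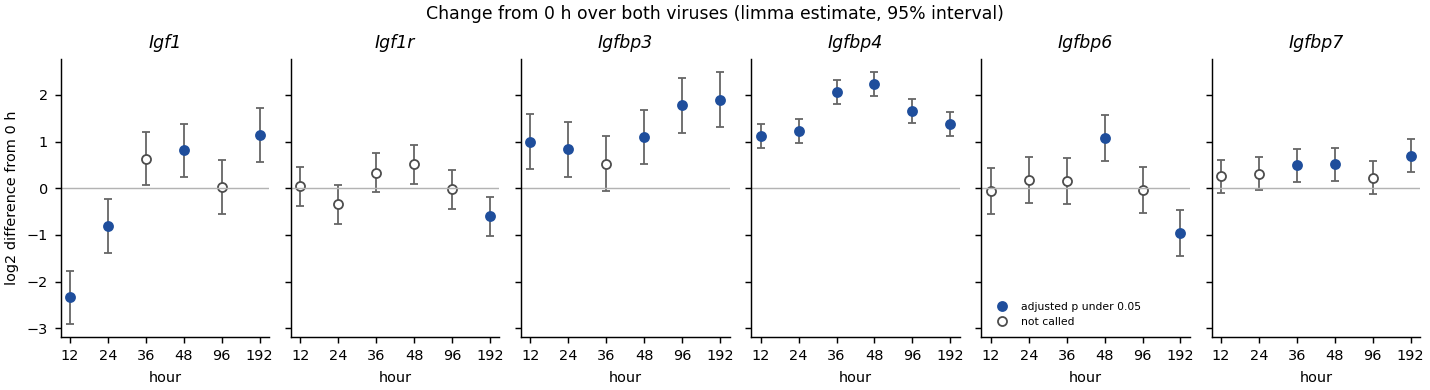
Log2 difference from 0 h at each later hour for the 6 tested members, as the limma estimate over both viruses with its 95% interval (bars). Filled points passed an adjusted p of 0.05. Igfbp4 is filled at all 6 hours, Igf1 goes from -2.34 at 12 h to 1.14 at 192 h, and Igfbp6 is filled at 48 and 192 h. The Igfbp3 estimates and the 192 h estimate of Igfbp6 rest on hours under 50 and depend on the offset of 16.

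When late hours (36 to 192 h) were set against early hours (0 to 24 h) within each arm, 0 of the 6 members were called by limma in either arm, where 3.04% of all genes were called in the empty virus arm and 0.184% in the SETD5 arm. At an unadjusted p under 0.05 there were 2 members in each arm. Igf1 was 1.56 higher in the late hours of the empty virus arm (adjusted p = 0.170) and 1.84 higher in those of the SETD5 arm (adjusted p = 0.208), with the wide spread that its course within each window gives.

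The virus comparison asked whether SETD5 altered these genes beside the time course. Over all 7 hours 0 of the 6 tested members were called by limma (3.62% of all genes were), and 2 had an unadjusted p under 0.05. In the early hours (0, 12 and 24 h) 0 were called (0.023% of all genes) and 1 was under 0.05 unadjusted. The late hours (36, 48, 96 and 192 h) gave 0 members called (12% of all genes) and 1 under 0.05 unadjusted. Of the change from early to late, 0 were called (0.023% of all genes) and 0 were under 0.05 unadjusted. The intervals below say how large a difference these arrays leave room for.

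Igf1 had the highest late virus difference of the 6. It read 782 to 859 at 36, 48 and 192 h and 339 at 96 h in the empty virus arm, against 764 to 1471 at the 4 late hours of the SETD5 arm. The difference, SETD5 minus empty virus, averaged 0.51 ± 0.18 on the log2 scale in the late hours (1.43-fold, 95% interval 0.12 to 0.91, limma adjusted p = 0.0845), and 0.23 ± 0.20 in the early hours (adjusted p = 0.968). It was uneven over hours: 0.55 at 0 h, then -0.04, 0.18, 0.02 and 0.14 from 12 to 48 h, then 1.13 at 96 h and 0.77 at 192 h. With 96 and 192 h alone taken as late, the difference was 0.95 ± 0.15 (1.93-fold, adjusted p = 0.00196), larger than in the early hours by 0.72 ± 0.19 (adjusted p = 0.0422), where 27.3% and 10.6% of all genes were called. The late difference over 36 to 192 h moved with single hours: it was 0.68 without the 36 h pair (adjusted p = 0.0302), 0.64 without 48 h (adjusted p = 0.0925), 0.31 without 96 h (adjusted p = 0.294) and 0.43 without 192 h (adjusted p = 0.216). The adipocyte marker sum was 23404 in the empty virus arm and 9921 in the SETD5 arm at 96 h, and 34181 and 19526 at 192 h, and its part in this difference was not tested.

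The 4 Igf1 probe sets parted at 192 h. At 96 h all 4 were higher in the SETD5 arm, by 1.13 (1437401_at), 1.08 (1434413_at), 0.75 (1419519_at) and 0.81 (1452014_a_at). At 192 h 1437401_at and 1434413_at were higher by 0.77 and 0.86, whereas 1419519_at and 1452014_a_at gave -0.17 and -0.46, lower in the SETD5 arm. In intensity, 1434413_at read 789 in the empty virus arm and 1443 in the SETD5 arm at that hour, and 1452014_a_at read 850 and 615. With 96 and 192 h as late hours and every probe set on its own, the first pair gave 0.95 and 0.97 (limma adjusted p = 0.00287 and 0.000570) and the second pair 0.29 and 0.18 (adjusted p = 0.301 and 0.608). The increase from the early hours was then not called for 1437401_at (0.72, adjusted p = 0.0564), was called for 1434413_at (0.75, adjusted p = 0.0171), and was 0.17 and 0.07 for the second pair (adjusted p = 0.699 and 0.909). The late virus difference of Igf1 thus depended on the probe set, while the fall at 12 h did not. Which transcript each probe set reads was not given in the sources used here. Over the 14 arrays the other 3 probe sets correlated with the main one at r = 0.960 to 0.994, which describes their shared course over hours.

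**Figure D3:**
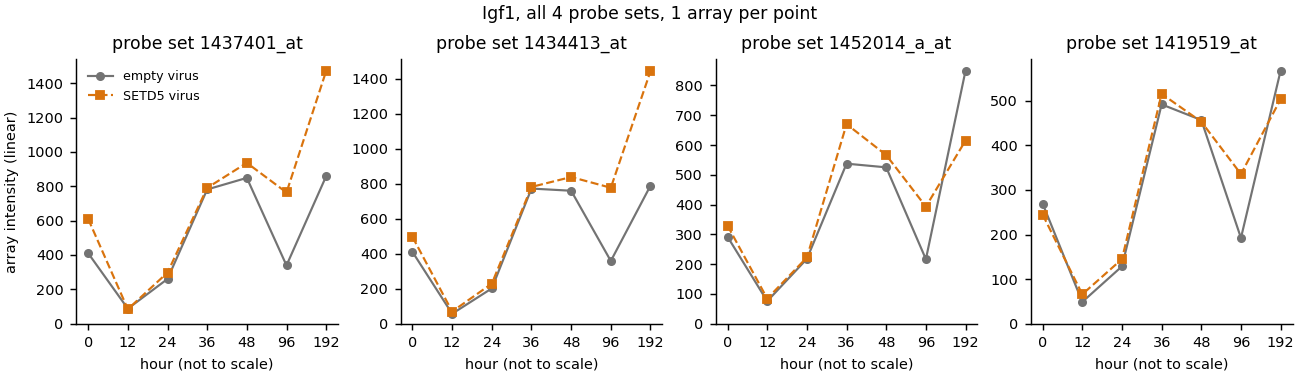
Intensity (linear scale, from 0) of the 4 Igf1 probe sets at each hour, 1 array per point, with the empty virus as grey circles and the SETD5 virus as orange squares. All 4 dip at 12 h. At 192 h the SETD5 point is the higher one for 1437401_at and 1434413_at and the lower one for 1452014_a_at and 1419519_at.

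For Igf1r the late difference was 0.24 ± 0.12 (95% interval -0.03 to 0.51, limma adjusted p = 0.200). It lay between -0.21 and 0.25 at the hours up to 96 h and was 0.71 at 192 h, when the empty virus arm was at 147 and the SETD5 arm at 250.5. The 3 brighter Igf1r probe sets gave 0.65 to 0.71 at 192 h, where each has a single pair of arrays and no test.

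The binding proteins differed in direction. Igfbp3 was higher in the SETD5 arm by 0.48 at 12 h, 0.49 at 96 h and 1.03 at 192 h, and lay between -0.19 and 0.02 at the other hours. Its late difference was 0.34 ± 0.18 (95% interval -0.08 to 0.75, limma adjusted p = 0.244). With 96 and 192 h alone it was 0.76 ± 0.17 (1.69-fold, adjusted p = 0.0105), and that exceeded the early difference by 0.67 with adjusted p = 0.0809. The dimmer Igfbp3 probe set read 48.2 and 43.1 in the empty virus arm at these hours against 78.6 and 105 in the SETD5 arm. At both hours the adipocyte marker sum was lower in the SETD5 arm, as given above for Igf1, and its part in the Igfbp3 difference was not tested. On its main probe set Igfbp4 was lower in the SETD5 arm at 7 of 7 hours, by values from -0.03 to -0.39. The mean was -0.21 ± 0.06 (95% interval -0.35 to -0.08, adjusted p = 0.0847). That comparison of Igfbp4 passed on 1 of its 6 probe sets, 1423756_s_at (-0.33, adjusted p = 0.0316), which was also lower at every hour. On the remaining probe sets the SETD5 array was the higher one at 36 h, for example 3154 against 3056 on 1437406_x_at. That probe set was higher at 192 h too, and 1421991_a_at at 24 h. Igfbp6 had a late difference of 0.11 (95% interval -0.20 to 0.42) and Igfbp7 one of -0.15 (95% interval -0.40 to 0.11), neither called. At 192 h alone Igfbp6 differed by 0.70 and Igfbp7 by -0.53, each from 1 pair of arrays.

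**Figure D4:**
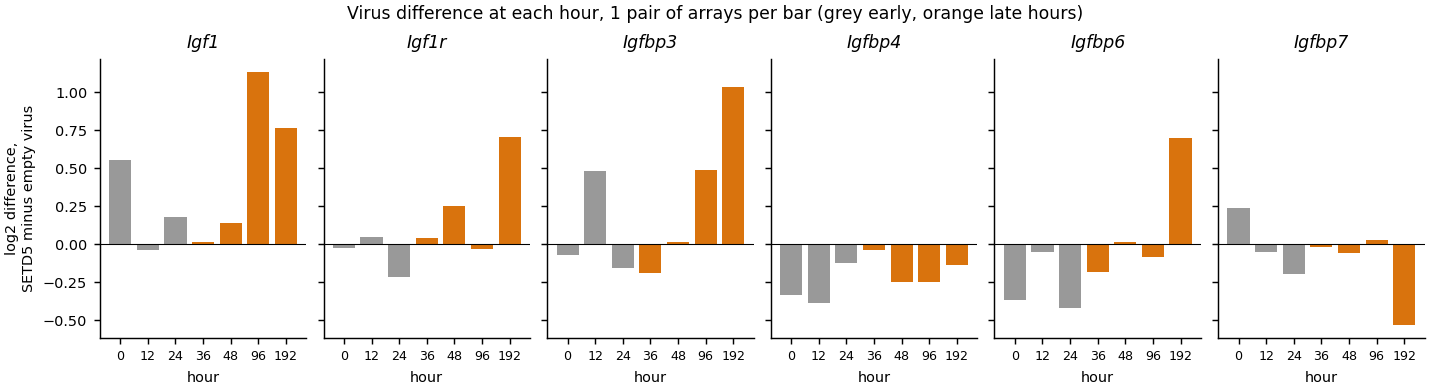
Log2 difference, SETD5 minus empty virus, at each hour for the 6 tested members, 1 pair of arrays per bar, with early hours in grey and late hours in orange. Bars show the main probe set of each gene. Igf1 and Igfbp3 have their tallest bars at 96 and 192 h, though the 12 h bar of Igfbp3 (0.48) is nearly as tall as its 96 h bar (0.49). Igfbp4 is below 0 at all 7 hours, and Igf1r, Igfbp6 and Igfbp7 depart furthest from 0 at 192 h.

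The other genes of the pathway were read from 8 lists with 103 genes, of which 92 were on the array and 71 were tested. In the late hours 8 of the 71 were higher and 2 lower in the SETD5 arm (limma), beside 7.43% and 4.56% of all tested genes. The median difference of the 71 was 0.03 and that of all genes 0.04. No list gene was called in the early hours, where 0.023% of all genes were. Over all hours 4 of the 71 were called by limma, all higher, beside 3.62% of all genes. These were Plat, Stc1, Grb14 and Ccn3 (limma adjusted p = 0.0220, 0.0245, 0.0308 and 0.0301). Each read higher in the SETD5 arm at every hour, 0 h included. Of the change from early to late, 0 of the 71 were called (0.023% of all genes).

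Of the 12 tested proteases that act on IGF binding proteins and their inhibitors, 5 were higher and 1 was lower, with a list median of 0.26. Among all tested genes 7.43% were higher and 4.56% lower, and the lists were chosen with earlier results of these data known. The adipocyte marker sum was lower in the SETD5 arm at 96 and 192 h. Its part in the differences of this list and the others was not tested. Plat, tissue plasminogen activator, was 1.10 ± 0.15 higher (limma adjusted p = 0.00462). Stc1, a stanniocalcin, the family that inhibits pappalysins, read 18.5 to 84.0 at the late hours of the empty virus arm and 30.8 to 283 in the SETD5 arm, higher at each of the 4 hours (0.99 ± 0.17, adjusted p = 0.00893). Both arms lay under 50 at 36 and 48 h, so the size of the Stc1 difference depends on the offset of 16. Mmp3, the matrix metalloprotease stromelysin, was 0.93 ± 0.25 higher (adjusted p = 0.0421). It read 46.5, 86.5, 49.6 and 72.8 at the late hours of the empty virus arm and 41.1, 169, 124.5 and 319 in the SETD5 arm. At 36 h it was therefore lower in the SETD5 arm. Some of these values lay under 50, so the size of the Mmp3 difference depends on the offset too. Timp1, an inhibitor of such metalloproteases, read 159 to 406.2 and 406.5 to 603 (0.69 ± 0.15, adjusted p = 0.0214). The list thus held both proteases and inhibitors among its higher genes. Outside the rule of 4 names per list, and named after their values were seen, Mmp14 was 0.51 higher (adjusted p = 0.0479) and Adam12, a membrane protease, was lower, with a difference of -0.47 (adjusted p = 0.0316). Of 16 other settings, the calls of Mmp3, Mmp14 and Adam12 held under 7, 6 and 9, that of Timp1 under 13 and that of Plat under 15, and that of Stc1 held under 14 of 15. For Pappa itself, the pappalysin that cuts IGFBP4, the late difference was 0.04 (adjusted p = 0.861).

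Among receptor substrates and adaptors 2 of 14 were higher. Grb14, an adaptor that restrains the insulin receptor, read 72.1 to 124 in the late hours of the empty virus arm and 134 to 322 in the SETD5 arm, without overlap (0.79 ± 0.12, limma adjusted p = 0.00795). Socs3, a suppressor of cytokine and insulin signalling, was 0.47 ± 0.10 higher (adjusted p = 0.0231, held under 11 of 16 other settings). Of the growth hormone input 1 of 5 was lower: Stat5a, the transcription factor that carries the growth hormone signal, read 238, 306, 154 and 107 at the late hours of the empty virus arm and 148, 167, 93.7 and 60.2 in the SETD5 arm (-0.69 ± 0.08, adjusted p = 0.00280). It was lower at each of the 4 late hours. Of 5 further proteins with an IGF binding protein domain, Ccn3 was higher (0.76 ± 0.14, adjusted p = 0.0115). It read 16.6, 7, 26.2 and 102 at the late hours of the empty virus arm and 24.4, 18.5, 61.4 and 267 in the SETD5 arm. Several of these values lay under 50, so the size of the Ccn3 difference depends on the offset of 16. None of the 4 other ligands and receptors (Igf2, Igf2r, Insr and Kazald1), the 19 genes of the PI3 kinase branch, the 10 of the MAP kinase branch or the 2 Igf2 mRNA binding proteins was called in the late hours. The insulin receptor gene Insr, for example, gave -0.18 (adjusted p = 0.341) and Irs1, its main adipocyte substrate, -0.11 (adjusted p = 0.355).

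**Figure D5:**
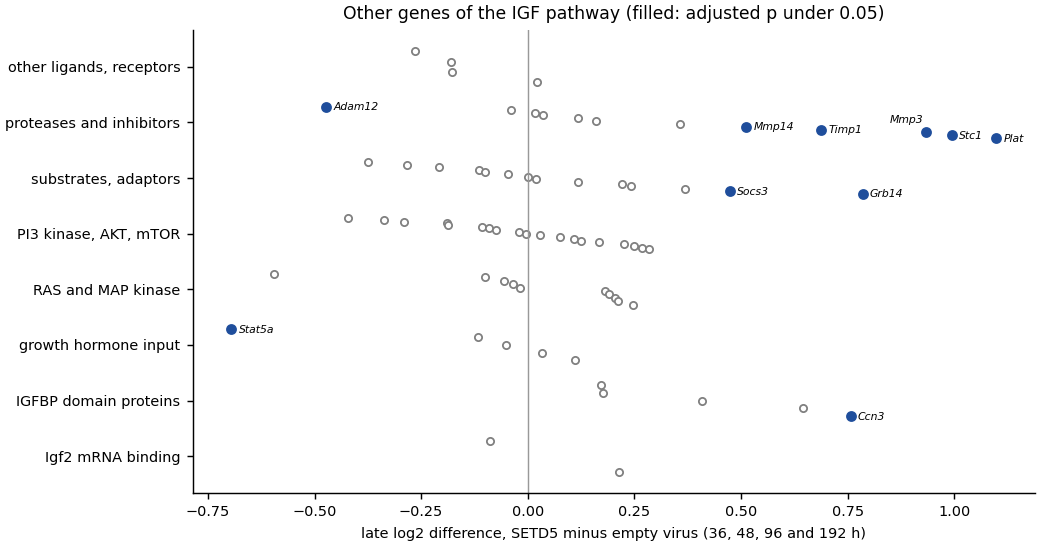
Late log2 difference, SETD5 minus empty virus, of the 71 tested genes of 8 pathway lists, 1 point per gene (limma estimate over 36, 48, 96 and 192 h). Filled and named points passed an adjusted p of 0.05. The proteases and inhibitors hold 6 of the 10 filled points, from Adam12 at -0.47 to Plat at 1.10.

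Courses like those of the members were sought among the 6440 genes whose intensity averaged at least 100, as Pearson correlations over the 14 arrays, which share their hours and culture lines. Igf1 was most like Rab9, a GTPase of endosome traffic (r = 0.964), and Lama4, a laminin chain (r = 0.944). For Igf1r these were Cttn, the actin binding protein cortactin (r = 0.898), and Axl, a receptor tyrosine kinase (r = 0.865). The genes nearest to Igfbp3 were Zfp672 (r = 0.799) and the adipocyte hormone gene Adipoq (r = 0.796). At 96 and 192 h, however, Adipoq was lower in the SETD5 arm (1979.5 and 5261) than in the empty virus arm (5251 and 7276), whereas Igfbp3 was higher. Igfbp4 followed Grk5, a kinase of G protein coupled receptors (r = 0.969), and Nfia, a transcription factor (r = 0.931). Igfbp6 was nearest to Col18a1 (r = 0.900) and Faf2 (r = 0.896), and Igfbp7 to Cd302 (r = 0.915) and Auh (r = 0.894). Among the members themselves Igf1r and Igfbp6 were the most alike pair (r = 0.823).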

How the data were processed

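Total RNA from 14 cultures was hybridised to mouse expression arrays. The authors deposited 1 table of linear intensity values, the average difference of the array maker's software, with each array's trimmed mean scaled to 100. The table held 45100 probe sets, of which 34944 had 1 gene symbol, 932 several and 9160 none, and 64 were controls. An intensity table gives no read depth, and precision is set by the number of arrays. The highest-mean probe set stood for each gene, genes at 50 or more on at least 3 arrays were kept, and log2(intensity + 16) was fitted in limma 3.58.1 (R 4.3.3) with Benjamini-Hochberg adjustment over 8682 genes and a threshold of 0.05. Virus effects were fitted with the hour as a block, since arrays of both arms share the labelled hour, and hour effects with the virus as a block. Settings tried were other scalings, offsets (4 and 64), filters, variance priors, late windows, probe sets, no block and each hour left out. The fit was tested on simulated data. The members and lists were chosen with earlier results of these data known. Beyond the 8 members, the genes named were, per list, at most 4 called in a virus comparison, by size of late difference, and 2 nearest genes per member. Start sequences came from RefSeq (GRCm38.p6), where all 8 members matched.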

Additional observations from a re-analysis of the deposited data

Results flagged for a closer look

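In each arm, and in the virus difference, the 7 values of each member were searched for a value that stood apart from the rest, 24 groups in all. Dixon's test at 95% was used on log2(intensity + 16). Chance passes it in about 1 in 20 groups of values drawn alike. The hours of an arm differ by design, so that rate need not hold for them. Igfbp6 in the SETD5 arm read 166 at 48 h against 40.7 to 73.8 at its other hours. The virus difference of Igfbp6 at 192 h, SETD5 minus empty virus, was 0.696 on the log2 scale against -0.42 to 0.02 at the other hours. That of Igfbp2 at 192 h was -0.624 against -0.01 to 0.42, from intensities of 15.9 and 4.7, both under 50.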

How the results depend on the processing

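Of 1560 values of single members under other settings, 1503 kept their side of the threshold, 17 gained a call and 40 lost one. The sign changed in 25 of the 1503, in 13 results, and 0 of these were called under either setting. With 96 and 192 h alone as late hours, 2 members were called in the late virus comparison (Igf1 and Igfbp3) and 1 in the change from early to late (Igf1), against 0 and 0. With that window 27.3% and 10.6% of all tested genes were called in these comparisons. Without each hour in turn, the late virus comparison gave 0 to 1 members (1 without 36 h, Igf1), the comparison of late with early hours within arms 0 to 1 (1 without 0 h, Igf1 in the SETD5 arm, 2.45, adjusted p = 0.0286), and the steps from hour to hour 5 to 14 calls against 11 (14 without 192 h, where the same steps gave 9 with it). Leaving out an hour also removes its own tests: calls against 0 h then numbered 14 to 19, where the same tests gave 15 to 19 with it, and without 192 h they went from 15 to 19. The 0 h pair cannot be left out there. Without the replicate block on the hour, 0 members were called in each virus comparison, and without the block on the virus 16 and 9 calls were left of 21 and 11. Scaling to a common median moved the median of all genes at 12 h from -0.06 to 0.05, and the calls at 12 h kept their direction. The late window crossed with single probe sets was chosen after seeing the data. The design limits all of this: 1 array per arm and hour, with no repeat of either transduction named in the labels.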
